A study of Mus musculus with 24 samples.

Results

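The RNA of 6 genes of pericellular proteolysis was followed in mouse alveolar macrophages: the matrix metalloproteinases Mmp8, Mmp12, Mmp13, Mmp14 and Mmp19, and the inhibitor Timp2. They were taken by symbol from deposited tables of 17017 genes, and all 6 were found once in each of 24 libraries. Matrix metalloproteinases are zinc proteases that are made as inactive precursors, cut to their active form outside the cell or at its surface, and held in check by the tissue inhibitors of metalloproteinases. Mmp8 and Mmp13 encode collagenases, which cut the triple helix of fibrillar collagen. Mmp12 encodes the macrophage elastase, known for its part in emphysema and in type 2 lung inflammation, and Mmp19 encodes a secreted protease that does not belong to the classical collagenase or gelatinase groups. Mmp14 encodes a membrane-type protease that activates proMMP2 in a complex with the TIMP2 protein, so Timp2 encodes both an inhibitor and a partner in activation.

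The cells were primary alveolar macrophages, the resident phagocytes of the air spaces, of wild-type BALB/cJ mice, and RNA was taken 20 h after stimulation. The stimuli were recombinant IL-13, a type 2 cytokine, IL-33, an alarmin of the interleukin-1 family, and IL-17A, which is linked to neutrophil-rich inflammation. The 8 groups of 3 libraries were IL-13, IL-13+IL-17A, IL-33+IL-13, IL-33+IL-13+IL-17A, IL-33, IL-17A, IL-33+IL-17A and untreated cells. Whether replicates are separate animals or separate wells is not stated in the labels. P-values therefore cover the spread between libraries, which may be technical.

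The unit is TPM, reads per gene length scaled to the same total in each library, for which the authors divided by the whole span of the gene, introns included. Values are therefore set side by side between libraries for 1 gene, and where levels of different genes are compared they are rescaled to exon length. Sums over marker lists are an exception: they add TPM per gene span, so genes with long introns weigh less in them. Values not marked as exon length are per gene span. The libraries held 9.13 to 12.89 M reads, recovered from the TPM values. Each of the 6 genes was covered in every library, with 203 to 736 reads for Mmp8, 193 to 6848 for Mmp13, 105 to 396 for Mmp14, 547 to 5167 for Mmp19, 693 to 1698 for Timp2 and 50992 to 88451 for Mmp12. The 12 libraries with IL-13 were clear of the other 12 on the leading principal component (26.4% of the variance). On the next component (8.9%) the triple combination's replicate 2, IL-17A replicate 2 and untreated replicate 1 stood apart. In each of these replicates 2, all 6 genes had the lowest of their group's 3 values. Without the 3 libraries, every call on the 6 genes given below stood.

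Of 14 alveolar macrophage markers 13 were in the tables. Siglecf averaged 303 TPM with IL-13, 296 TPM with IL-33+IL-13 and 531 TPM in untreated cells, and Itgax 2291, 2398 and 1665 TPM in these groups. Other markers were lower with IL-33+IL-13 than with IL-13: Krt79 averaged 18.01 TPM with IL-33+IL-13, 43.7 TPM with IL-13 and 3.37 TPM in untreated cells, and Ear2 2899, 4191 and 687 TPM. On exon length, Marco stayed at or under 4.21 TPM and Car4 at or under 3.79 TPM in every library, both low, and Car4 averaged 2.07 TPM over the 12 libraries with IL-13 and 0.116 TPM over the 12 without, per gene span.

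Mmp8, Mmp12 and Mmp13 belong to a cluster of metalloproteinase genes on chromosome 9. On mm10, Mmp13 (ENSMUSG00000050578) lies at bases 7272514 to 7283331, Mmp12 (ENSMUSG00000049723) at 7344381 to 7369499 and Mmp8 (ENSMUSG00000005800) at 7558456 to 7568485, all on the plus strand. Mmp14 (ENSMUSG00000000957) lies on chromosome 14, bases 54431612 to 54445364, and Mmp19 (ENSMUSG00000025355) on chromosome 10, bases 128790910 to 128800824, both on the plus strand. Timp2 (ENSMUSG00000017466) lies on the minus strand of chromosome 11, bases 118301069 to 118355740. All 6 are protein-coding, and each value is a sum over the whole gene.

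Collagenase promoters are a textbook case of control by AP-1, a dimer of Fos and Jun proteins, beside sites of ETS factors known as PEA3 elements, while IL-13 acts through STAT6. The stretches upstream of the start sites of the cluster genes and of Mmp14 are shown because the first group rose and Mmp14 fell with IL-13. They are RefSeq sequences on GRCm38.p6, all on the plus strand, 5′ to 3′, ending at the base before the start site or before the first exon base in GENCODE M21. Capitals mark matches on either strand to the AP-1 motif TGANTCA, the PEA3 motif AGGAAG, the TATA box TATAAA or the STAT6 motif, TTC and GAA with 4 bases between. These motifs were chosen after the sequences had been seen.
Mmp13, chr9:7272264-7272513: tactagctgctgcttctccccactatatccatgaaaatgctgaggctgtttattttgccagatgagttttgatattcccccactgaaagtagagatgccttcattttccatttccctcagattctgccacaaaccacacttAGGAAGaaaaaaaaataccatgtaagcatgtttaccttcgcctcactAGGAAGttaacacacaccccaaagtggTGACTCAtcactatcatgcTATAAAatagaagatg
Mmp8, chr9:7558179-7558428: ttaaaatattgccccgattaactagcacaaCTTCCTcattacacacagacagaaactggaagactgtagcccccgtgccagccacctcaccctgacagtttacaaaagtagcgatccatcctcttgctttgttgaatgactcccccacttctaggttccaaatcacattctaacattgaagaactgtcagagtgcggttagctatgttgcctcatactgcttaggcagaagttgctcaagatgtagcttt
Mmp12, first start site, chr9:7344147-7344380: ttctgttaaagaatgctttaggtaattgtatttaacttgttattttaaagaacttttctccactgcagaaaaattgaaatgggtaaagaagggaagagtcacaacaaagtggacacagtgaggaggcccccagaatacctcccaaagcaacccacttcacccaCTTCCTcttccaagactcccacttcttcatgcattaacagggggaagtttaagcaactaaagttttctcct
Mmp12, second start site, chr9:7347124-7347373: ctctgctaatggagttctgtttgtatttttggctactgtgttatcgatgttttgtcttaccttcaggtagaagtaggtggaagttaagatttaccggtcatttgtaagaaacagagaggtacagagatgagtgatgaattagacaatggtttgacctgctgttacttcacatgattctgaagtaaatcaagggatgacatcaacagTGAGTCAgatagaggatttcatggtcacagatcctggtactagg
Mmp14, chr14:54431348-54431597: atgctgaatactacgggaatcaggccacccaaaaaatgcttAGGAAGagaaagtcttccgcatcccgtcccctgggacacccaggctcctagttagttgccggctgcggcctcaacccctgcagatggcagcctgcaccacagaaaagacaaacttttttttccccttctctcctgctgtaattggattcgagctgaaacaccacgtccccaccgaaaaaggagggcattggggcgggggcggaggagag

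The Mmp13 stretch held an AP-1 match, TGACTCA, from 35 bases upstream of the start site, PEA3 matches from 109 and 62 bases upstream and a TATA box from 16 bases upstream. The second start site of Mmp12 had an AP-1 match, TGAGTCA, from 44 bases upstream, in an intron of the transcripts from the first. No AP-1 match lay in the 250 bases upstream of Mmp8, Mmp14, Timp2 or the first Mmp12 start site. PEA3 matches lay from 220 bases upstream of Mmp8 and 87 bases upstream of the first Mmp12 start, both on the minus strand, and from 209 bases upstream of Mmp14. Among 32851 RefSeq windows of the same 250 bases, 6.75% held the AP-1 motif, 29.5% the PEA3 motif and 12.4% the TATA box. No window of the 5 matched genes held the STAT6 motif, found in 5.85% of all windows, or its form with 3 bases between, found in 7.02%. The letters of the different motifs did not overlap in these stretches, and a match is not a bound site.

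IL-13 alone moved all 6 genes: the proteases Mmp13, Mmp19, Mmp8 and Mmp12 rose, and Mmp14 and Timp2 fell. Across all 13215 tested genes 29.8% were called in this comparison, 14.1% higher and 15.7% lower, so a call in itself was common. The IL-13 and untreated libraries did not overlap for 42% of tested genes, so that was common too. Calls required an adjusted p under 0.05 in limma on log2(TPM + 1), with Benjamini-Hochberg adjustment over all tested genes, and log2 fold changes below are on that scale. In bulk RNA, fewer cells of a type and less RNA per cell cannot be told apart.

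Mmp13 stood at 502, 502 and 501 TPM in the 3 IL-13 libraries, against 19.2, 22.2 and 28.4 TPM in untreated cells. The groups were far apart, and the IL-13 libraries were nearly equal. The log2 fold change was 4.39 (limma, SE 0.133, adjusted p = 9.22e-15), a 21.5-fold ratio of mean TPM, and ranked 6th from the top of 13215 genes. With IL-13+IL-17A Mmp13 had 486, 535 and 571 TPM.

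Mmp8, best known as the collagenase of neutrophil granules, stood at 58.1, 58.0 and 73.5 TPM with IL-13, against 22.7, 25.0 and 23.8 TPM in untreated cells. All IL-13 libraries lay above all untreated ones, and replicate 3 was the highest. The log2 fold change of 1.36 (SE 0.145, limma adjusted p = 4.91e-07) ranked 143rd from the top. Of 16 neutrophil and granulocyte markers 6 were in the tables. Their summed TPM ran from 77.5 to 93.6 with IL-13, against 137 to 164 in untreated cells, mostly S100a8, while Mmp9 never passed 0.195 TPM, Camp 1.25 TPM and Lcn2 0.542 TPM. Camp and Mmp9 were at 0 in the IL-13 libraries. Cxcr2 averaged 1.49 TPM with IL-13 and 9.20 TPM in untreated cells, and Csf3r 1.52 and 6.38 TPM. The part of such cells in the Mmp8 values was not tested.

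Mmp19 stood at 464, 477 and 477 TPM with IL-13, against 62.5, 67.5 and 64.7 TPM in untreated cells, with no overlap. Its log2 fold change was 2.85 (SE 0.065, limma adjusted p = 3.65e-16), 23rd from the top. Mmp19 shares exon sequence on the opposite strand with Tmem198b, and the handling of strand is not given in the sources used here, so some reads may belong to the other gene. Tmem198b averaged 42.3 to 48.8 TPM over the 8 groups and was not called with IL-13 (log2 fold change -0.01 averaged over 4 backgrounds, limma adjusted p = 0.904).

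Mmp12 was already abundant without stimulation. It stood at 3069, 3250 and 3354 TPM with IL-13, against 2166, 2141 and 2201 TPM in untreated cells. The groups were apart, yet the change was modest at 1.49-fold in mean TPM (log2 fold change 0.57, SE 0.035, limma adjusted p = 2.02e-10). An Mmp12 exon also overlaps Mmp1b on the opposite strand, a gene not analysed here.

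Mmp14 and Timp2 went the other way. Mmp14 stood at 8.54, 8.66 and 8.29 TPM with IL-13, against 15.7, 20.0 and 19.9 TPM in untreated cells (log2 fold change -1.03, SE 0.165, limma adjusted p = 7.25e-05). Timp2 stood at 13.7, 13.9 and 12.9 TPM with IL-13, against 24.2, 24.5 and 24.2 TPM in untreated cells (log2 fold change -0.81, SE 0.059, limma adjusted p = 2.76e-09). Neither pair of groups overlapped, and the untreated Timp2 values were almost the same. Fibroblasts also make Mmp14 and Timp2. Of 13 fibroblast markers 6 were in the tables, with a summed TPM of 2.97 to 3.58 with IL-13 and 5.26 to 7.36 in untreated cells, mostly Pdgfra. Col1a1 never passed 0.389 TPM and Dcn 0.132 TPM, and the part of such cells in the fall was not tested.

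**Figure D1:**
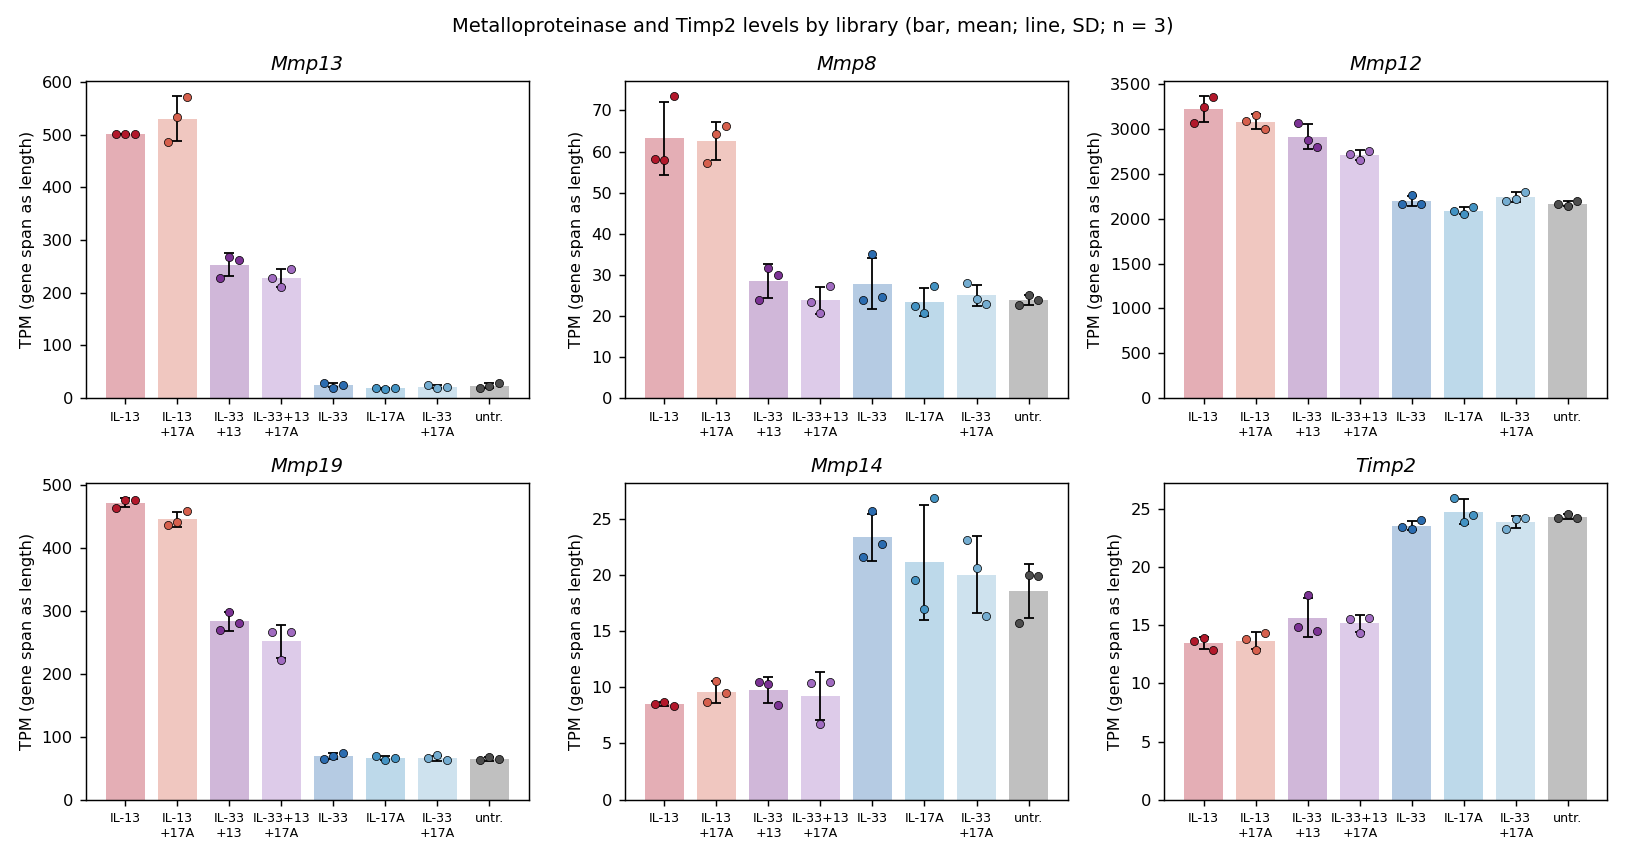
TPM of the 6 genes (vertical axes, starting at 0, gene span as length) in each library of the 8 groups. Bars are means, lines the SD over 3 libraries and points the libraries. With IL-13, Mmp13 libraries sit between 501 and 502 TPM and with IL-33+IL-13 between 229 and 269 TPM, against 19.2 to 28.4 TPM in untreated cells, while Mmp14 and Timp2 are lower in all groups with IL-13.

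Over all 4 settings of the other cytokines, the IL-13 effect kept its direction for 5 of the genes. Averaged over the 4 backgrounds, the log2 fold change was 3.97 for Mmp13 (95% interval 3.83 to 4.11), 2.37 for Mmp19 (2.31 to 2.44), 0.68 for Mmp8 (0.53 to 0.83), 0.45 for Mmp12 (0.42 to 0.49), -1.08 for Mmp14 (-1.25 to -0.90) and -0.70 for Timp2 (-0.76 to -0.64). All 6 were called in limma, 4 higher and 2 lower, where 50.9% of all tested genes were, 20% higher and 30.9% lower. Of these called genes 39.3% were higher as deposited and 50.5% with median-ratio scaling. For every gene but Mmp8, the 12 libraries with IL-13 and the 12 without did not overlap, which held for 15.1% of tested genes. Mmp19, for instance, ran from 222 to 477 TPM with IL-13 (median 368) and from 62.5 to 74.4 TPM without it (median 66.2). Mmp8 ran from 20.8 to 73.5 TPM with IL-13 (median 44.5), against 20.8 to 34.97 TPM without it (median 23.9). With IL-13, its 6 highest values were those of the 6 libraries with no IL-33. When IL-13 was added to IL-33+IL-17A, 32.7% of tested genes were called, 11% higher and 21.7% lower (33.6% of calls were higher as deposited and 52.4% with median-ratio scaling). So were all of the 6 genes but Mmp8 (log2 fold change -0.07, 95% interval -0.37 to 0.23, limma adjusted p = 0.75).

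IL-33 lowered the induced proteases when it was given beside IL-13. Mmp8 fell to values that overlapped with untreated cells, Mmp13 and Mmp19 fell but stayed far above untreated cells, Mmp12 fell slightly, and Mmp14 was not called. Few genes answered to IL-33 here: when IL-33 was added to IL-13, 2.57% of tested genes were called, 0.832% higher and 1.74% lower, and 4 of the 6 genes were called, all lower. When it was added to IL-13+IL-17A, 3.55% were called, 1.15% higher and 2.4% lower (32.4% of calls were higher as deposited and 43.8% with median-ratio scaling), and the same 4 genes were called, all lower. The libraries did not overlap for 18.8% of tested genes when IL-33 was added to IL-13, and for 17.7% when added to IL-13+IL-17A.

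Mmp8 stood at 23.9, 31.7 and 29.9 TPM with IL-33+IL-13, against 58.1, 58.0 and 73.5 TPM with IL-13 alone. No library overlapped, and the log2 fold change was -1.12 (SE 0.145, limma adjusted p = 9.74e-05), 85th from the bottom of 13215. In the triple combination Mmp8 had 23.3, 20.8 and 27.3 TPM, against 57.3, 64.2 and 66.2 TPM with IL-13+IL-17A (log2 fold change -1.36, limma adjusted p = 1.15e-05). Set against untreated cells, Mmp8 had a log2 fold change of 0.24 (95% interval -0.06 to 0.54, limma adjusted p = 0.269) with IL-33+IL-13 and of -0.01 (-0.31 to 0.29, limma adjusted p = 0.971) with all 3 cytokines, where 25% and 28.1% of tested genes were called. The summed TPM of the neutrophil markers ran from 67.3 to 109 with IL-33+IL-13 and overlapped with IL-13 alone. With all 3 cytokines it ran from 95.5 to 128, against 84.8 to 95.3 with IL-13+IL-17A, with no overlap. Cxcr2 averaged 2.61 TPM with IL-33+IL-13 and 1.49 TPM with IL-13, and Csf3r 2.49 and 1.52 TPM. Of these markers only Lcn2 averaged less with IL-33+IL-13 than with IL-13, at 0 against 0.082 TPM.

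Mmp13 stood at 229, 269 and 263 TPM with IL-33+IL-13, against 502, 502 and 501 TPM with IL-13 alone (log2 fold change -0.99, SE 0.133, limma adjusted p = 0.000155). It stood at 227, 212 and 245 TPM with all 3 cytokines, against 486, 535 and 571 TPM with IL-13+IL-17A (log2 fold change -1.21, limma adjusted p = 1.70e-05). Both pairs of groups were clear of each other. Mmp13 nevertheless stayed 10.9-fold above untreated cells with IL-33+IL-13 and 9.79-fold with all 3, as ratios of mean TPM.

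Mmp19 stood at 270.2, 299 and 282 TPM with IL-33+IL-13, against 464, 477 and 477 TPM with IL-13 alone (log2 fold change -0.74, SE 0.065, limma adjusted p = 1.16e-06). With all 3 cytokines it stood at 267, 222 and 267 TPM, against 437, 441 and 460 TPM with IL-13+IL-17A (log2 fold change -0.83, limma adjusted p = 2.94e-07). The groups did not overlap on either background, and replicate 2 of the triple combination was the lowest.

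Mmp12 stood at 3068, 2876 and 2805 TPM with IL-33+IL-13, against 3069, 3250 and 3354 TPM with IL-13 alone. The highest value with IL-33 nearly reached the lowest without it, and the log2 fold change was -0.15 (SE 0.035, limma adjusted p = 0.0263). This call was lost without IL-13 replicate 2 (adjusted p = 0.101), IL-13 replicate 3 (0.171), IL-33+IL-13 replicate 2 (0.104) or IL-33+IL-13 replicate 3 (0.153), and with median-ratio scaling (0.277). Against IL-13+IL-17A at 3094, 3161 and 3002 TPM, the triple combination had 2727, 2651 and 2762 TPM (log2 fold change -0.19, limma adjusted p = 0.00322). That call was lost with median-ratio scaling (0.283), with only the groups compared (0.106) and with voom on recovered reads (0.145).

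Averaged over both IL-17A backgrounds, IL-33 beside IL-13 gave a log2 fold change of -1.24 for Mmp8 (95% interval -1.46 to -1.03), -1.10 for Mmp13 (-1.30 to -0.90) and -0.78 for Mmp19 (-0.88 to -0.68). In this average 7.01% of tested genes were called, 2.53% higher and 4.48% lower, and 5 of the 6 genes were called, Timp2 higher and the other 4 lower. The libraries of Mmp8, Mmp13 and Mmp19 did not overlap between 6 libraries and 6, against 5.32% of all genes. Mmp8 ranked 35th from the bottom, Mmp13 53rd and Mmp19 136th. Of all called genes 36.1% were higher with the deposited scaling and 46.9% with median-ratio scaling. Mmp12 had -0.17 (limma adjusted p = 0.00016, and 0.0518 with median-ratio scaling), and Mmp14 0.05 (-0.20 to 0.29, limma adjusted p = 0.88).

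Timp2 was slightly higher with IL-33 beside IL-13. It stood at 14.9, 17.6 and 14.5 TPM with IL-33+IL-13, against 13.7, 13.9 and 12.9 TPM with IL-13, and at 15.6, 14.3 and 15.6 TPM with all 3 cytokines, against 13.8, 12.9 and 14.3 TPM with IL-13+IL-17A. The average log2 fold change was 0.17 (95% interval 0.08 to 0.25, limma adjusted p = 0.0162), and neither single comparison was called (0.20, limma adjusted p = 0.101, and 0.14, limma adjusted p = 0.264), although with median-ratio scaling both were (0.0203 and 0.0171). The average call was lost in 4 settings, without IL-13 replicate 3 (adjusted p = 0.0502), without IL-13+IL-17A replicate 2 (0.0538), without the 4 libraries with title numbers 30, 31, 32 and 36 (0.0687) and with only the groups compared in the fit (0.132).

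The effect of IL-33 differed between cells with and without IL-13. In the interaction averaged over IL-17A, where 3.57% of tested genes were called, 5 of the 6 genes were called: Mmp8 at -1.39 (SE 0.145, limma adjusted p = 7.45e-06), Mmp13 at -1.24 (9.78e-06), Mmp19 at -0.83 (2.60e-07), Mmp12 at -0.22 (0.000528) and Timp2 at 0.21 (0.0490). The Timp2 value was at the threshold and kept its call in 4 of 24 fits that left out 1 library, with adjusted p up to 0.0960. Mmp14 had -0.08 (95% interval -0.43 to 0.27, limma adjusted p = 0.871).

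In TPM, the IL-13 change that remained with IL-33 present was 1.78% for Mmp8, 47.8% for Mmp13, 52.5% for Mmp19 and 68.2% for Mmp12, and for the falls 136% for Mmp14 and 73.1% for Timp2. With IL-17A present these shares were -3.02%, 40.4%, 48.9%, 47.4%, 93.7% and 78.5% in the same order of genes. They are ratios of differences of group means, given with no error. Within libraries the log2 ratio of Mmp8 to Mmp19, per exon length, averaged -2.81 ± 0.127 with IL-33 and -2.31 ± 0.135 without it, both with IL-13 (SD, n = 6 each), and the libraries did not overlap. The log2 ratio of Mmp8 to Mmp13 on the same scale was -3.18 ± 0.101 with IL-33 and -3.01 ± 0.135 without it, and overlapped.

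**Figure D2:**
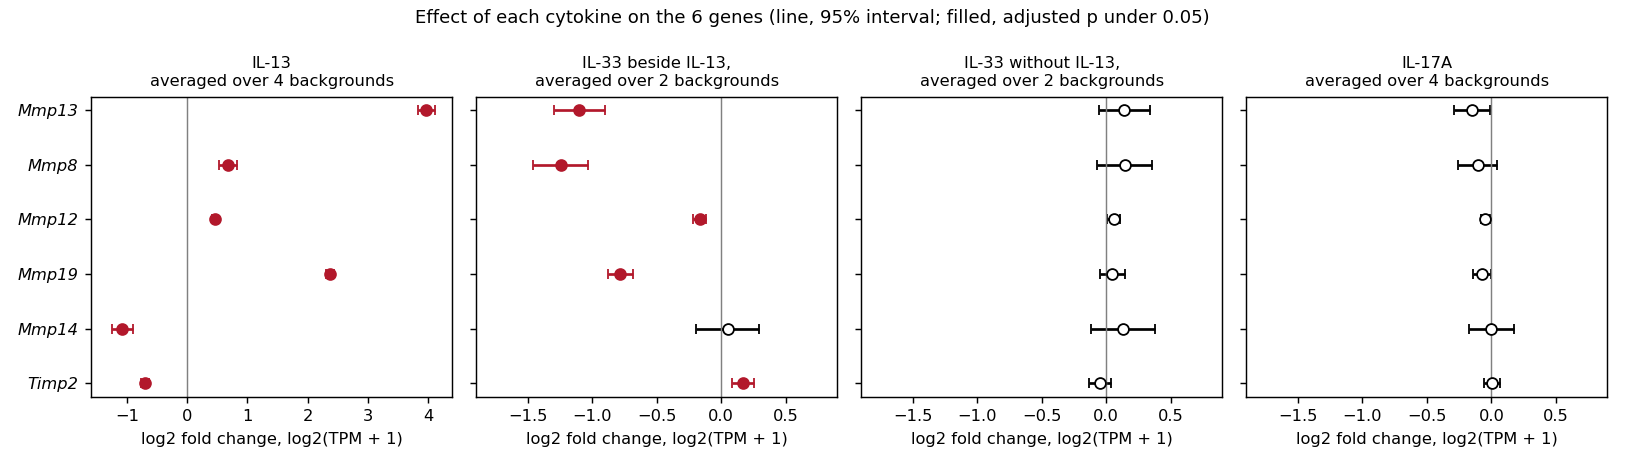
Log2 fold changes on log2(TPM + 1) (horizontal axes) of the 6 genes for IL-13, for IL-33 beside IL-13, for IL-33 without IL-13 and for IL-17A. Points are limma estimates, lines 95% intervals, and filled points passed an adjusted p under 0.05. IL-13 spans 3.97 for Mmp13 to -1.08 for Mmp14, IL-33 beside IL-13 reaches -1.24 for Mmp8, and no point is filled in the other panels.

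Without IL-13, neither IL-33 nor IL-17A gave a call on any of the 6 genes. Against untreated cells limma called 0% of tested genes with IL-33, with IL-17A and with IL-33+IL-17A. At an unadjusted p under 0.05 there were 0, 1 and 0 of the 6 genes, the 1 being Mmp13 with IL-17A. Mmp13 stood at 18.97, 16.3 and 19.4 TPM with IL-17A, against 19.2, 22.2 and 28.4 TPM in untreated cells, with overlap (log2 fold change -0.32, 95% interval -0.60 to -0.04, limma adjusted p = 1). Among all tested genes 484, 469 and 501 had an unadjusted p under 0.05.

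With IL-33 alone Mmp13 stood at 29.0, 20.0 and 25.1 TPM and Mmp8 at 23.8, 34.97 and 24.6 TPM, and both overlapped with untreated cells. Mmp14 stood at 21.6, 25.7 and 22.7 TPM with IL-33, above all untreated libraries, and was not called (log2 fold change 0.32, 95% interval -0.03 to 0.67, unadjusted p = 0.0681 in limma). Timp2 stood at 23.4, 23.3 and 24.03 TPM with IL-33, below all untreated libraries (log2 fold change -0.04, limma adjusted p = 1). Groups did not overlap for 7.42% of tested genes in this comparison. Averaged over both IL-17A backgrounds, IL-33 without IL-13 gave 95% intervals of -0.06 to 0.34 for Mmp13, -0.07 to 0.36 for Mmp8, -0.05 to 0.14 for Mmp19, -0.12 to 0.37 for Mmp14 and -0.13 to 0.04 for Timp2. Mmp12 had 0.06 (0.01 to 0.11, unadjusted p = 0.0262 in limma, adjusted p = 0.957).

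IL-17A averaged over its 4 backgrounds gave 3 of the 6 genes an unadjusted p under 0.05 and none an adjusted one, again with 0% of tested genes called in limma and 440 at an unadjusted p under 0.05. The log2 fold change was -0.15 for Mmp13 (95% interval -0.29 to -0.01), -0.05 for Mmp12 (-0.08 to -0.01) and -0.07 for Mmp19, and 0.00 for Mmp14 (-0.17 to 0.17) and Timp2 (-0.06 to 0.07). Adding IL-17A to IL-33+IL-13 gave Mmp19 267, 222 and 267 TPM, against 270.2, 299 and 282 TPM without IL-17A. That log2 fold change of -0.18 had an unadjusted p of 0.0154 and an adjusted p of 0.74 in limma, and ran from -0.22 to -0.09 on leaving out 1 library. Mmp12 averaged 2713 TPM, against 2916 TPM without IL-17A (log2 fold change -0.10, unadjusted p = 0.00783 and adjusted p = 0.74 in limma). Neither gene overlapped between the groups. Among tested genes 0% were called in this comparison, and 8.12% did not overlap.

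Levels per exon length allow the genes to be ordered against each other if the counted reads are exonic, which is not stated. With IL-13 the order was Mmp12 at 3703 ± 175 TPM, Mmp13 at 672 ± 1.12, Mmp19 at 439 ± 8.13, Mmp8 at 86.5 ± 12.4, Timp2 at 62.6 ± 2.34 and Mmp14 at 6.49 ± 0.135 (SD, n = 3, exon-length TPM). In untreated cells it was Mmp12 at 2526 ± 45.8, Timp2 at 114 ± 1.51, Mmp19 at 61.0 ± 1.75, Mmp8 at 33.1 ± 1.23, Mmp13 at 31.6 ± 6.04 and Mmp14 at 14.3 ± 1.69. On this scale Timp2 ranked next after Mmp12 in untreated cells, and below every protease but Mmp14 with IL-13. Untreated Mmp8 and Mmp13 were closer than their spread. With IL-33+IL-13, Mmp13 had 342 ± 25.9, Mmp19 266 ± 10.3, Timp2 73.2 ± 6.85 and Mmp8 39.3 ± 5.21. Over all libraries Mmp12 ranked 24th of 13215 genes on this scale.

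The RNA of both collagenases per Timp2 RNA, a ratio chosen after the values had been seen, put these levels together. Mmp8 plus Mmp13 over Timp2 was 12.1 ± 0.662 with IL-13 and 12.6 ± 1.08 with IL-13+IL-17A, 5.23 ± 0.514 with IL-33+IL-13 and 4.80 ± 0.208 with all 3 cytokines, and 0.566 ± 0.0620 in untreated cells (SD, n = 3). With IL-33, IL-17A or both the mean ratio lay between 0.492 and 0.651. The 3 ranges were apart, in the order IL-13 without IL-33, IL-13 with IL-33, and no IL-13. Mmp14 over Timp2 moved less: its log2 ratio, also per exon length, averaged -3.26 ± 0.189 in the 12 libraries with IL-13 and -2.84 ± 0.258 in the 12 without (SD), and the libraries overlapped. The size of these ratios also rests on the counted reads being exonic. RNA ratios say nothing of protein or activity.

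**Figure D3:**
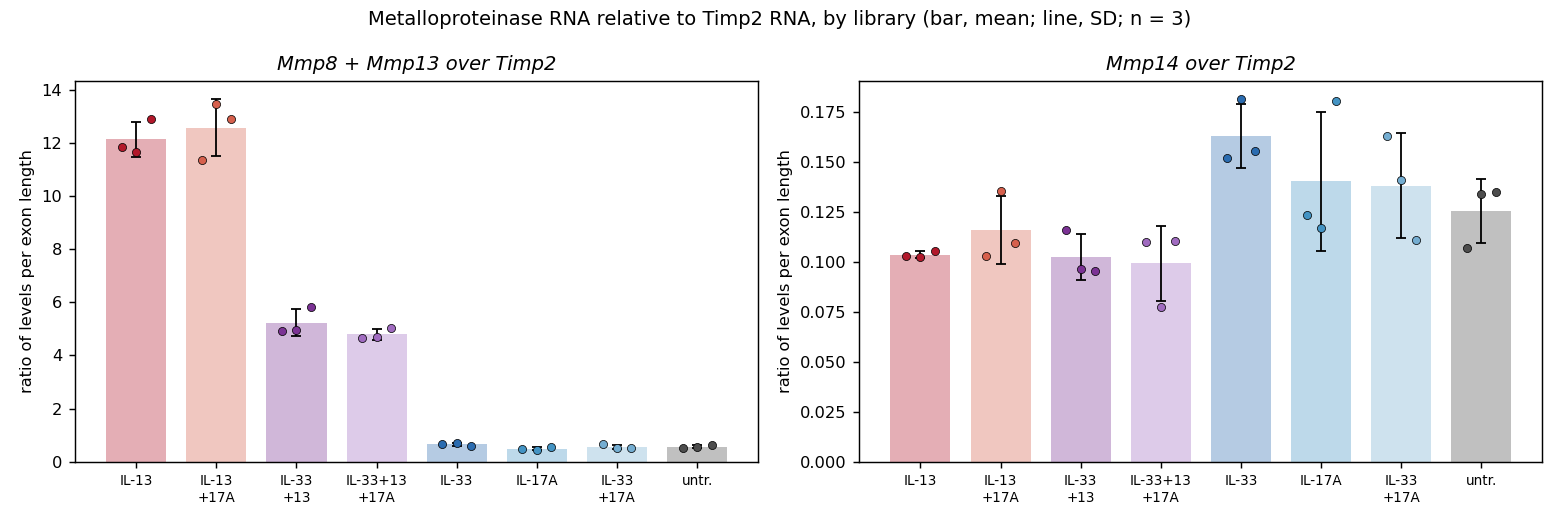
Ratios of exon-length TPM within each library, Mmp8 plus Mmp13 over Timp2 and Mmp14 over Timp2, on linear axes from 0. Bars are means, lines the SD over 3 libraries and points the libraries. The collagenase ratio is 11.6 to 12.9 with IL-13, 4.92 to 5.82 with IL-33+IL-13 and 0.506 to 0.630 in untreated cells.

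In the chromosome 9 cluster, induced genes and genes with almost no reads were neighbours. Mmp12 starts 71.9 kb and Mmp8 285.9 kb from the left end of Mmp13. Mmp10, a stromelysin gene between Mmp12 and Mmp8, reached at most 0.405 TPM per exon length in any library. Mmp27, which starts 298.9 kb from Mmp13 and just beyond Mmp8, reached at most 1.16 TPM on that scale. Mmp1b, Mmp3, Mmp1a, Mmp20 and Mmp7 of the cluster were not analysed here. The flanking genes Dcun1d5 and Tmem123 averaged 69.6 and 151 exon-length TPM over all libraries.

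**Figure D4:**
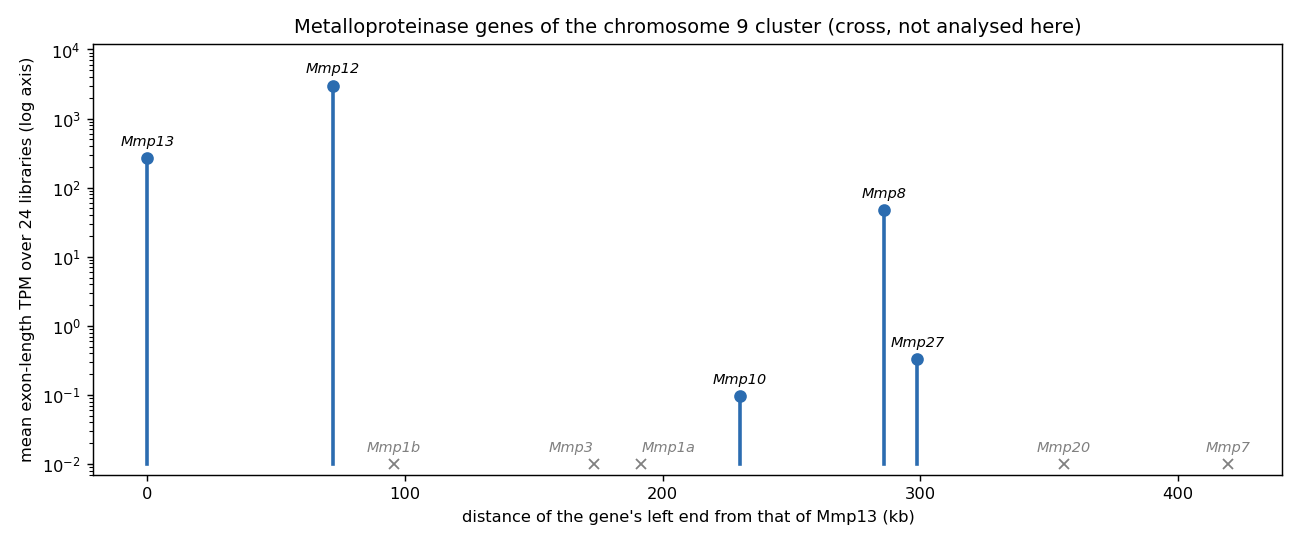
Mean exon-length TPM over 24 libraries (vertical log axis) of the metalloproteinase genes of the chromosome 9 cluster, placed by the distance of each gene's left end from that of Mmp13 (horizontal axis, kb). Crosses at the foot mark genes not analysed here and carry no value. Mmp12 averages 2994, Mmp13 269.8 and Mmp8 47.99 exon-length TPM, while Mmp10 and Mmp27 average 0.0954 and 0.326.

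The rest of the family was low. Of 18 other metalloproteinase genes listed, 11 were in the tables, and on exon length 10 of them had every group mean under 1 TPM. The other was Mmp2, with a highest group mean of 2.08 exon-length TPM. Only Mmp23 passed the filter of 1 TPM in at least 3 libraries, on deposited TPM, with a highest group mean of 2.11 TPM (0.828 per exon length), and it was not called in any comparison of the list. Mmp9, the gelatinase of neutrophils, and Mmp2, the gelatinase that MMP14 activates, were not tested. Of 4 other inhibitor genes listed, 3 were in the tables and none passed the filter. Timp1, the inhibitor most often induced by inflammation, had a highest group mean of 1.60 exon-length TPM.

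Genes of the wider proteolytic system were mixed. Of 10 tested ADAM and ADAMTS genes, 1 rose and 2 fell with IL-13 alone, with a median log2 fold change of 0.06, against -0.03 over all tested genes. Among all tested genes 14.1% were called higher and 15.7% lower, which is the background for this list and those that follow. These and the lists below were chosen with results of these data known. Adam8, a sheddase of activated leukocytes, averaged 15.1 ± 2.03 TPM with IL-13, 9.84 ± 0.828 TPM with IL-33+IL-13 and 1.24 ± 0.0665 TPM in untreated cells (SD, n = 3). Its log2 fold change was 2.84 with IL-13 (limma adjusted p = 6.92e-10) and -0.58 with IL-33 beside IL-13 averaged over 2 backgrounds (limma adjusted p = 0.00971), but IL-33+IL-13 against IL-13 alone was not called (-0.57, limma adjusted p = 0.154). Adam17, the sheddase of TNF, fell to 59.3 ± 1.07 TPM with IL-13, against 79.0 ± 6.21 TPM in untreated cells (limma adjusted p = 0.00429). Adamtsl5 fell by less (log2 fold change -0.27, limma adjusted p = 0.0274), and Adamts10 had -0.27 and was not called (limma adjusted p = 0.169).

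Of 6 tested genes of plasminogen activation, 2 rose and 1 fell with IL-13, with a median of 0.09. Plau, the urokinase, whose product plasmin can activate metalloproteinase precursors, fell to 208 ± 3.46 TPM with IL-13, against 324 ± 19.2 TPM in untreated cells (log2 fold change -0.63, limma adjusted p = 1.78e-07). It was higher at 271 ± 22.7 TPM with IL-33+IL-13 (log2 fold change 0.37 against IL-13 alone, limma adjusted p = 0.00153). Plaur, its receptor, rose to 269 ± 1.88 TPM, against 213 ± 2.71 TPM in untreated cells (limma adjusted p = 7.10e-09). Anxa2, a plasminogen-binding annexin, rose to 240.3 ± 4.83 TPM, against 188 ± 3.02 TPM (limma adjusted p = 7.22e-09). S100a10, its partner, was at 170.4 ± 4.36 and 170.2 ± 2.87 TPM.

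Of 6 tested convertases and cathepsins, none rose and 3 fell, with a median of -0.16. These were the cathepsins Ctsk, at 3122 ± 71.8 TPM with IL-13 and 3860 ± 54.6 TPM in untreated cells (log2 fold change -0.31, limma adjusted p = 2.10e-09), Ctsb (-0.29) and Ctsl (-0.25). Ctss had 0.02 (limma adjusted p = 0.732).

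Of 9 tested genes of collagen and matrix binding or uptake, 4 rose and 1 fell, with a median of 0.13. Fn1, fibronectin, rose to 19.4 ± 1.68 TPM with IL-13, against 4.13 ± 0.707 TPM in untreated cells (limma adjusted p = 4.04e-08). Mrc1, the mannose receptor, which takes up collagen fragments, rose to 149 ± 6.40 TPM, against 88.4 ± 8.43 TPM (limma adjusted p = 9.37e-06), and the hyaluronan receptor Cd44 rose by 0.43 on the log2 scale. Spp1, osteopontin, fell to 352 ± 17.5 TPM with IL-13, against 763 ± 9.69 TPM in untreated cells (log2 fold change -1.12, limma adjusted p = 1.14e-11), and was higher at 479 ± 13.1 TPM with IL-33+IL-13 (0.44 against IL-13 alone, limma adjusted p = 6.96e-05).

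Of 11 tested AP-1 and other regulator genes, 4 rose and none fell, with a median of 0.10. Fos, a subunit of AP-1, averaged 321 ± 10.5 TPM with IL-13, 277 ± 17.2 TPM with IL-33+IL-13 and 157 ± 7.95 TPM in untreated cells. Its log2 fold change was 1.03 with IL-13 (limma adjusted p = 7.01e-10) and -0.20 with IL-33 beside IL-13 averaged over 2 backgrounds (limma adjusted p = 0.0130), but IL-33+IL-13 against IL-13 alone was not called (-0.22, limma adjusted p = 0.127). Fosl2, another AP-1 subunit, rose to 59.97 ± 3.63 TPM, against 38.6 ± 6.08 TPM (limma adjusted p = 0.00291), and Spi1, the ETS factor PU.1, rose by 0.16 on the log2 scale. Stat6 had -0.17 and was not called with IL-13 alone (limma adjusted p = 0.186), but averaged over 4 backgrounds it was lower (-0.24, limma adjusted p = 0.000195). In that average 5 of the 11 rose and 2 fell, and among all tested genes 20% were called higher and 30.9% lower.

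**Figure D5:**
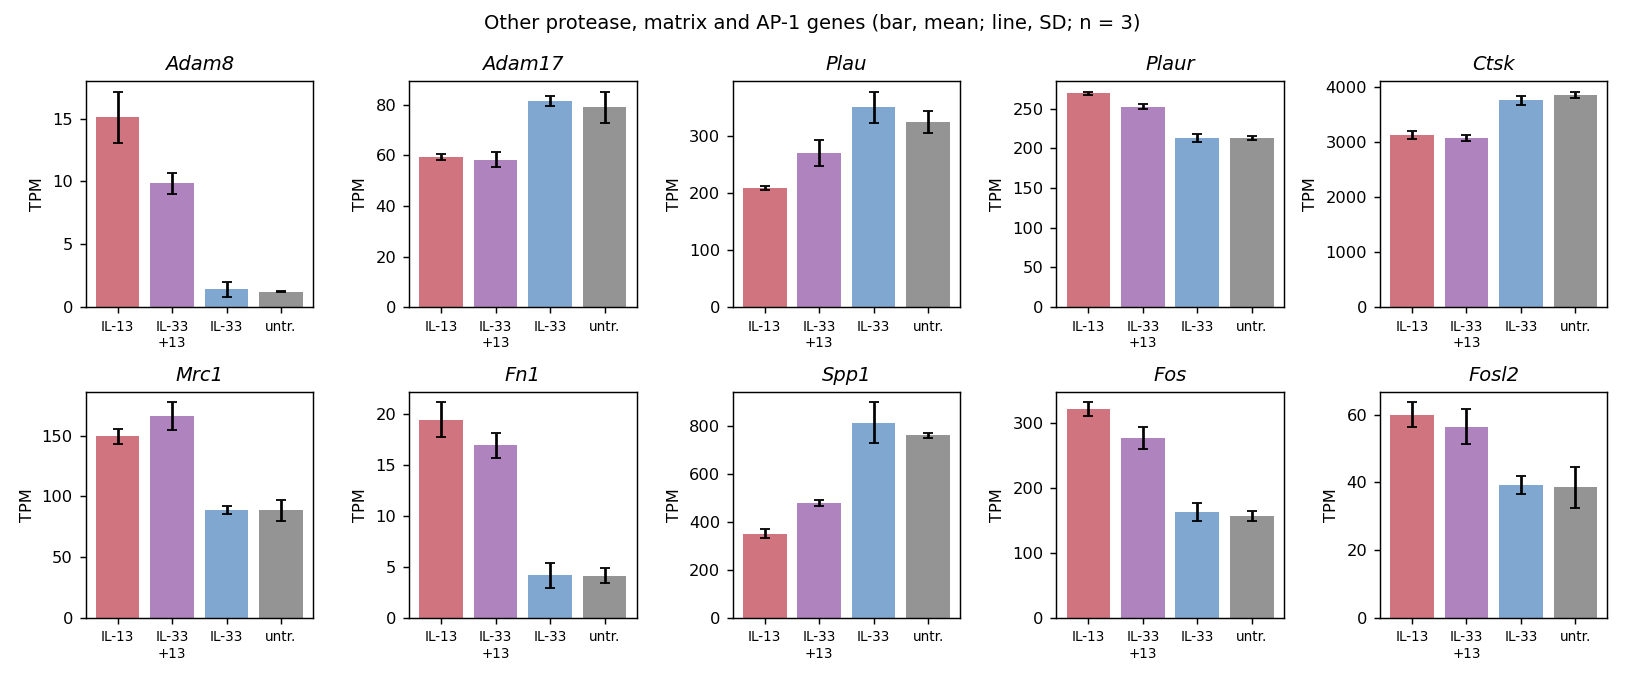
Mean TPM (vertical axes from 0) of 10 related protease, matrix and AP-1 genes with IL-13, IL-33+IL-13, IL-33 and in untreated cells. Bars are means and lines the SD over 3 libraries. Means of Adam8, Fn1 and Fos are higher in both groups with IL-13 than in untreated cells, and those of Plau and Spp1 are lowest with IL-13 alone.

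The genes whose pattern was most like each member were found by Pearson r on log2(TPM + 1) over 24 libraries, among 7829 genes. These libraries share 1 split, by IL-13, so r is a description and a high value is common. For Mmp13 the closest were Mmp19 (r = 0.994), Il1b (0.991) and Awat1 (0.991), and for Mmp19 Anxa4 (0.995), Mmp13 (0.994) and Clec7a (0.994). Il1b averaged 66.0 ± 6.40 TPM with IL-13, 33.4 ± 2.76 TPM with IL-33+IL-13 and 5.34 ± 0.661 TPM in untreated cells. Mmp8 was closest to Procr (0.935), Srxn1 (0.934) and Txnrd1 (0.932). Srxn1 and Txnrd1 encode enzymes of antioxidant defence, and Srxn1 averaged 1011 ± 19.01 TPM with IL-13, 647 ± 28.2 TPM with IL-33+IL-13 and 685 ± 54.4 TPM in untreated cells. Mmp12 was closest to Cd36 (0.981), Mmp19 (0.978) and Clec7a (0.975). Mmp14 was closest to Mfsd1 (0.976), Clec4e (0.966) and Cyfip2 (0.965), and Timp2 to Gnpda1 (0.991), Slc49a4 (0.991) and Slc66a2 (0.989).

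Marker lists of other cells also moved with IL-13. Of 11 epithelial markers 8 were in the tables, with a summed TPM of 64.6 to 67.7 with IL-13 and 26.6 to 28.9 in untreated cells. With IL-13 the sum was mostly Cdh1 and Krt19, per gene span, while Epcam never passed 2.92 TPM and Krt8 0.516 TPM. Hopx averaged 7.28 TPM with IL-13 and 11.9 TPM in untreated cells, and Epcam, Scgb1a1, Ager and Foxj1 also averaged less with IL-13. Of 10 monocyte and interstitial macrophage markers 7 were in the tables, with 682 to 741 TPM with IL-13 and 1554 to 1601 TPM in untreated cells, mostly Cd14. The alveolar macrophage list itself summed to 12928 to 13537 TPM with IL-13, 10990.4 to 11191 TPM with IL-33+IL-13 and 4102 to 4173 TPM in untreated cells. Its rise with IL-13 was mostly Chil3, at 5167 TPM against 382 TPM in untreated cells, and Ear2, at 4191 against 687 TPM. Siglecf (303 against 531 TPM) and Cd9 (421 against 440 TPM) averaged less with IL-13, and the other members more. The endothelial sum was 9.18 to 10.2 TPM with IL-13 and 8.45 to 11.5 TPM in untreated cells, and the lymphocyte sum, 2 of 9 markers and mostly Il7r, 161 to 169 and 167 to 189 TPM. The part of these shifts in the values of the 6 genes was not tested.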

How the data were processed

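RNA of 24 libraries, 8 groups of 3, was measured by sequencing, and each library has 1 deposited table of 17017 genes with TPM values. Alignment used STAR and the mm10 genome, per the submitters' processing notes. Versions, the read counter, its strand setting and whether it counted intron reads were not given in the sources used here. Deposited TPM values are per the length column of the file headers, which equals the gene span for all 17017 genes, with a median of 4.23 times the exon length in GENCODE M21. Dividing by span therefore lowers the TPM of genes with long introns relative to genes with short ones. TPM times length fell on whole read numbers (tolerance 0.05) for 90.0% to 91.5% of values no higher than 20 reads, which gave 9.13 to 12.89 M per library. Exon-length TPM are these reads per exon length, which takes all of them as exonic.

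The 13215 genes that reached 1 TPM in 3 or more libraries were tested with limma 3.58.1 (trend, R 4.3.3) on log2(TPM + 1), with 8 group means, all 24 libraries and no covariates. The pseudocount of 1 understates folds of genes near 1 TPM. Benjamini-Hochberg adjustment ran over all tested genes of 1 comparison, and genes were called at an adjusted p under 0.05. Groups came from the treatment labels. Named besides the 6 genes are up to 4 called genes of each related list that average 5 TPM or more in some group, up to 2 untested ones, and the 3 genes most like each member. The Jun genes and Fosl1 are named beside Fos and Fosl2 outside this rule. Ratios per Timp2 and promoter motifs were chosen after values and sequences were seen. The 6 genes, the lists and the tests were chosen with earlier results of these data known. The script was tested on simulated data. Promoter windows from RefSeq (GRCm38.p6) matched 5 of the 6 genes, and Mmp19 had none. There were 33 alternative settings.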

Additional observations from a re-analysis of the deposited data

Results flagged for a closer look

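The effect of IL-33 differed between cells with and without IL-13, called for 3 of the 6 genes without IL-17A and for 5 averaged over IL-17A. Without IL-17A the difference of the log2 fold changes (limma interaction on log2(TPM + 1)) was -1.32 for Mmp8 (SE 0.204, adjusted p = 0.00145), -1.07 for Mmp13 (SE 0.188, adjusted p = 0.00477) and -0.83 for Mmp19 (SE 0.0926, adjusted p = 5.06e-05), and 1.17% of tested genes were called. Averaged over both IL-17A backgrounds it was -1.39 for Mmp8 (adjusted p = 7.45e-06), -1.24 for Mmp13 (adjusted p = 9.78e-06), -0.83 for Mmp19 (adjusted p = 2.60e-07), -0.22 for Mmp12 (adjusted p = 0.000528) and 0.21 for Timp2 (adjusted p = 0.0490). In that average 3.57% of tested genes were called. The Timp2 call held in 4 of 24 fits that left out 1 library, and the Mmp12 call was lost with median-ratio scaling (limma adjusted p = 0.0670). The 6 libraries with IL-13 and IL-33 had 20.8 to 31.7 TPM of Mmp8, against 57.3 to 73.5 TPM in the 6 with IL-13 and no IL-33. The 6 with IL-33 and no IL-13 had 22.9 to 34.97 TPM, against 20.8 to 27.2 TPM in the 6 with neither.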

How the results depend on the processing

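The 120 results on the 6 genes were recomputed under 33 settings, 24 of which left out 1 library. Of 3960 values 3915 kept direction and call (a sign change of an uncalled value counts as kept), 39 lost the call, 6 gained one and 0 reversed, and all those that changed concern Mmp12 or Timp2 with IL-33. The library left out often belonged to neither group of a comparison, and many uncalled results had adjusted p far above the threshold. The count of kept values is therefore no measure of how firm a single call is. Mmp12 with IL-33 added to IL-13 lost its call with voom on recovered reads (adjusted p = 0.131), with only the groups compared (0.284) and without the 4 libraries whose title numbers (30, 31, 32 and 36) lie outside the run of the others (0.0566), and its interaction with median-ratio scaling (0.0670). All 4 of these libraries are of groups with IL-33: IL-33, IL-33+IL-17A and the triple combination. What their numbers mark is not stated and cannot be fully told apart from IL-33. Timp2 gained a call with IL-33 added to IL-13 under median-ratio scaling (0.0203), voom (0.0201) and exon length (0.0193), and with IL-33 added to IL-13+IL-17A under median-ratio scaling (0.0171) and voom (0.0184), and its interaction was lost with a pseudocount of 0.1 (0.0505). No count of the 6 genes called moved by over 1.5 times.

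Counts over all genes moved more. The voom test on recovered reads called 1924 genes higher and 2506 lower with IL-13 against untreated cells (1857 and 2075 with the deposited TPM). With only the groups compared, called genes were 1508 with all 3 cytokines against untreated cells (3710 in the full fit), 3 with IL-33, 5 with IL-17A and 3 with IL-33+IL-17A (0 each in the full fit), 1847 with IL-13 added to IL-33+IL-17A (4321), 144 with IL-33 added to IL-13 (340), 49 with IL-33 added to IL-13+IL-17A (469), 614 with IL-33 beside IL-13 (926) and 1 with IL-33 without IL-13 (0). That last count was also 1 with no filter. Without those 4 libraries they were 2068 with IL-13 added to IL-33+IL-17A, 94 in the interaction without IL-17A (155) and 289 in the averaged one (472). These settings hold fewer libraries or more genes than the full fit. Leaving out 1 library gave 212 to 418 with IL-33 added to IL-13, the lowest without IL-13 replicate 1 or 3 (217 without IL-33+IL-13 replicate 3), 286 to 666 with IL-33 added to IL-13+IL-17A, 0 to 1 with IL-33 without IL-13 and 0 to 1 with IL-17A averaged. The lowest of the second range came without IL-13+IL-17A replicate 3, with 294 without its replicate 1, 308 without its replicate 2 and 311 without replicate 2 of the triple combination.

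No paired analysis was possible because the title numbers run on from library to library, and the replicate numbers 1 to 3 used here only follow the order of the libraries and pair none across groups. With 105 to 396 reads, Mmp14 has the least depth of the 6 genes.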
